A study of Mus musculus with 8 samples.

Results

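The mTORC1 restraint genes described here are 10 genes of the network that limits or forms the kinase complex mTORC1: Ddit4, Sesn1, Sesn2, Sesn3, Tsc1, Tsc2, Deptor, Depdc5, Mtor and Rptor. They were chosen by symbol, and all 10 were measured, by 31 of the 34945 probe sets that carry 1 gene symbol, out of 18193 genes in all. The samples were mouse embryonic stem cells (ESCs), self-renewing cultured cells that can form all tissues of the embryo, kept without feeders or serum in 2i medium, which holds LIF, PD0325901 at 1 μM to block MEK and CHIR99021 at 3 μM to block GSK3, in every group. Released cells (Resc, 3 arrays) received 64 μM of 10058-F4 for 60 h and then 48 h of 2i medium without it. Inhibitor-treated cells (MYCi, 2 arrays) received 64 μM of 10058-F4, a small molecule that disrupts the pairing of MYC with MAX, for 60 h. Control cells (DMSO, 3 arrays) received the solvent for 60 h, so the released cells were also 48 h longer in culture than both other groups. No genotype or cell line is given in the labels. They also do not say that replicates are independent cultures, so the p-values cover array-to-array spread that may be only technical.

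The complex mTORC1 is a protein kinase that promotes protein and lipid synthesis and blocks autophagy when amino acids, growth factors and energy are sufficient. Mtor encodes the kinase and Rptor its scaffold Raptor, which recruits substrates. The TSC complex, formed by TSC1, TSC2 and TBC1D7, switches off the GTPase RHEB, the direct activator of mTORC1, and DDIT4 (also called REDD1), made under stress, acts through TSC. DEPDC5 is a subunit of GATOR1, which switches off the Rag GTPases, and the sestrins hold back its inhibitor GATOR2 when amino acids are scarce. DEPTOR binds mTOR and inhibits it. Inhibition of mTOR is known to bring mouse blastocysts and ESCs into a paused state resembling diapause. Arrays measure RNA, and nothing here measures the activity of the kinase.

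The promoters of Ddit4 and the 3 sestrins are shown because the sestrins parted in direction while Ddit4, Sesn2 and Sesn3 moved the same way. RefSeq sequences were found for 9 of the 10 genes, in 10 windows of 300 bases each, from 250 bases before to 50 after an annotated start (GRCm38.p6). The windows are Ddit4, chr10:59951721-59952020, minus strand, Sesn2, chr4:132510407-132510706, minus strand, Sesn3, chr9:14276051-14276350, plus strand, and Sesn1 with its 2 starts, chr10:41810324-41810623 and chr10:41887189-41887488, plus strand. All are written 5′ to 3′, and capitals mark the motif matches named in the next paragraph.
Ddit4: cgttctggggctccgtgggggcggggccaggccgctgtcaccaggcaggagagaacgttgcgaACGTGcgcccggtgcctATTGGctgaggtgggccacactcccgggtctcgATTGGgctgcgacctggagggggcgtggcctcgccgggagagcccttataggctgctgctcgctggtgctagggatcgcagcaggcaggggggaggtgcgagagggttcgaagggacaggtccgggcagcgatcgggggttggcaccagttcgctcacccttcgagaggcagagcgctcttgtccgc
Sesn2: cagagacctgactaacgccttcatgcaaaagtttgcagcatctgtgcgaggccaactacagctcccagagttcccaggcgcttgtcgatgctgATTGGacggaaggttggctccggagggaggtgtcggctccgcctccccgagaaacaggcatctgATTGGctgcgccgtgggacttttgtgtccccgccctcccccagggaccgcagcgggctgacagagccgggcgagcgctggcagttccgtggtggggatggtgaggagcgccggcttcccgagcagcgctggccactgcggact
Sesn3: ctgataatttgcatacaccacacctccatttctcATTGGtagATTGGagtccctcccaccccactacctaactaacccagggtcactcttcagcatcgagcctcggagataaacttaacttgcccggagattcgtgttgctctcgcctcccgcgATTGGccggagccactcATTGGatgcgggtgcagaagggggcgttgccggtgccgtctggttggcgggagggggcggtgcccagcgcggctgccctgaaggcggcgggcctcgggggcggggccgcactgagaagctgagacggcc
Sesn1 first start: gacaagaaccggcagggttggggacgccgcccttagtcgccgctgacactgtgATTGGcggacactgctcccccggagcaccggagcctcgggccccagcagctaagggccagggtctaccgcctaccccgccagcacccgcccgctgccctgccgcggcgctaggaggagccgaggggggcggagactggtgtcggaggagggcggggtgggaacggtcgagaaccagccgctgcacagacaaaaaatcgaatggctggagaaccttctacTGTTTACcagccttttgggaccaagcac
Sesn1 second start: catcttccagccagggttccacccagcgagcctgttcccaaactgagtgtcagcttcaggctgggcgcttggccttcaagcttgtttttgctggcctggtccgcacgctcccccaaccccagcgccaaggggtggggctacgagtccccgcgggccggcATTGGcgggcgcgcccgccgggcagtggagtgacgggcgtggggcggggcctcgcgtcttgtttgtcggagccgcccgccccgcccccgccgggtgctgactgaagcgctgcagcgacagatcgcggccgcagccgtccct

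Motifs were searched on both strands. The CCAAT box, CCAAT, is bound by NF-Y. It matched 2 times in the window of Ddit4, at -170 and -137 from the start, 2 times in that of Sesn2, at -157 and -93, and 4 times in that of Sesn3. It also matched 1 time in each Sesn1 window and 4 times in that of Mtor. The windows of Tsc1, Tsc2, Depdc5 and Rptor had none. Among the genes called with the inhibitor, Ddit4, Sesn2 and Sesn3 rose and Sesn1 fell with the motif, and Tsc1 rose and Rptor fell without it. A relation between the motif and these changes was not tested. Of 32851 promoter windows, 37.4% hold it. The core of the hypoxia response element, ACGTG, matched at -187 in Ddit4 and at -34 in Rptor, against 19.6% of all windows. A FoxO motif, GTAAACA, was found on the reverse strand 23 bases into the transcript at the first Sesn1 start, and in 3.65% of all windows. The MYC-binding E-box CACGTG, which contains the hypoxia core and stands in 7.15% of windows, and the composite element of C/EBP and ATF factors, TGATGNAA, in 3.97%, matched none of the 10 member windows. A match is a description of letters, and windows of this length leave out distal elements.

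Before the results, the arrays were compared. Within each group, arrays correlated at 0.9977 to 0.9982 across all genes, and no array stood apart from its group. Markers of ESCs (7 genes) had mean levels of 11.18 to 11.21 in released cells, 11.29 to 11.3 in inhibitor-treated cells and 11.15 to 11.17 in DMSO cells (log2). Single ESC markers moved both ways with the inhibitor: Zfp42 (0.69), Klf4 (0.46) and Esrrb (0.2) were called higher and Tdgf1 (-0.38) lower. Bacterial control probe sets, which have no target in mouse RNA, lay between 2.15 and 2.95 on all arrays. Mean levels of the 7 fibroblast and feeder markers lay between 3.33 and 3.53, and of the 6 endoderm markers between 3.72 and 3.86. In each of these lists 1 marker was called lower with the inhibitor, Thy1 (-0.4) and Foxa2 (-0.38). The 4 mesoderm markers averaged 4.91 to 5 in released, 4.73 to 4.78 in inhibitor-treated and 4.9 to 5.07 in DMSO cells, with 1 lower with the inhibitor (Mixl1, -0.44). For the 5 neural markers the means were 4.96 to 5.05 in released, 4.82 in inhibitor-treated and 5.01 to 5.22 in DMSO cells. Of these, Tubb3 (-1.39) and Sox1 (-0.31) were lower with the inhibitor, and both were lower in released than in DMSO cells (-0.52 and -0.36). The mean of the 7 trophectoderm markers was 5.6 to 5.65 in released cells, 7.06 to 7.2 in inhibitor-treated cells and 5.4 to 5.49 in DMSO cells, with 4 of 7 higher with the inhibitor (Krt18, Krt8, Eomes and Gata3). Cdx2 (4.73 against 4.93), Tfap2c (9.45 against 9.25) and Elf5 (2.97 against 2.89) did not pass the test in inhibitor-treated against DMSO cells. Of these, Elf5 was close to the bacterial controls. So was Gata3 in DMSO cells, at 2.39 to 2.65, against 3.58 and 4.03 in inhibitor-treated cells. For the counts in these marker lists, 19.2% of all genes were called higher and 22.3% lower with the inhibitor. In released against DMSO cells, Krt18 was higher (1.59) and Tfap2c lower (-1.08), both called. The difference between the 3′ and 5′ probe sets of Gapdh, a sign of RNA integrity, was -0.133 to -0.117 in released, -0.216 to -0.148 in inhibitor-treated and -0.13 to -0.108 in DMSO cells. For Actb the groups overlapped, with 0.248 to 0.278 in released, 0.254 to 0.288 in inhibitor-treated and 0.251 to 0.269 in DMSO cells. The part of these shifts in the results on the member genes was not tested. In bulk RNA, fewer cells of a type and less RNA per cell cannot be told apart.

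With the inhibitor, Ddit4, Sesn2, Sesn3 and Tsc1 rose and Sesn1 and Rptor fell, while Tsc2, Deptor, Depdc5 and Mtor did not pass the test. The threshold was an adjusted p of 0.05 in limma, over all genes. Thus 4 of 10 member genes were called higher, against 19.2% of all genes, and 2 were called lower, against 22.3% of all genes. Their median log2 difference was 0.13 and that of all genes -0.06. After release, the same 6 genes passed the test against inhibitor-treated cells: Sesn1 and Rptor were higher (2 of 10, against 22.7% of all genes) and Ddit4, Sesn2, Sesn3 and Tsc1 were lower (4 of 10, against 19.2% of all genes). The comparisons share the inhibitor-treated arrays, so the turn of direction is not independent of the first result. Released cells differed from DMSO cells in Sesn1, which was higher (1 of 10, against 4.66% of all genes), and in Ddit4 and Sesn3, which were lower (2 of 10, against 4.01%). Single-gene values are from the probe set of each gene with the highest mean level, as log2 expression or log2 differences with moderated standard errors.

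**Figure D1:**
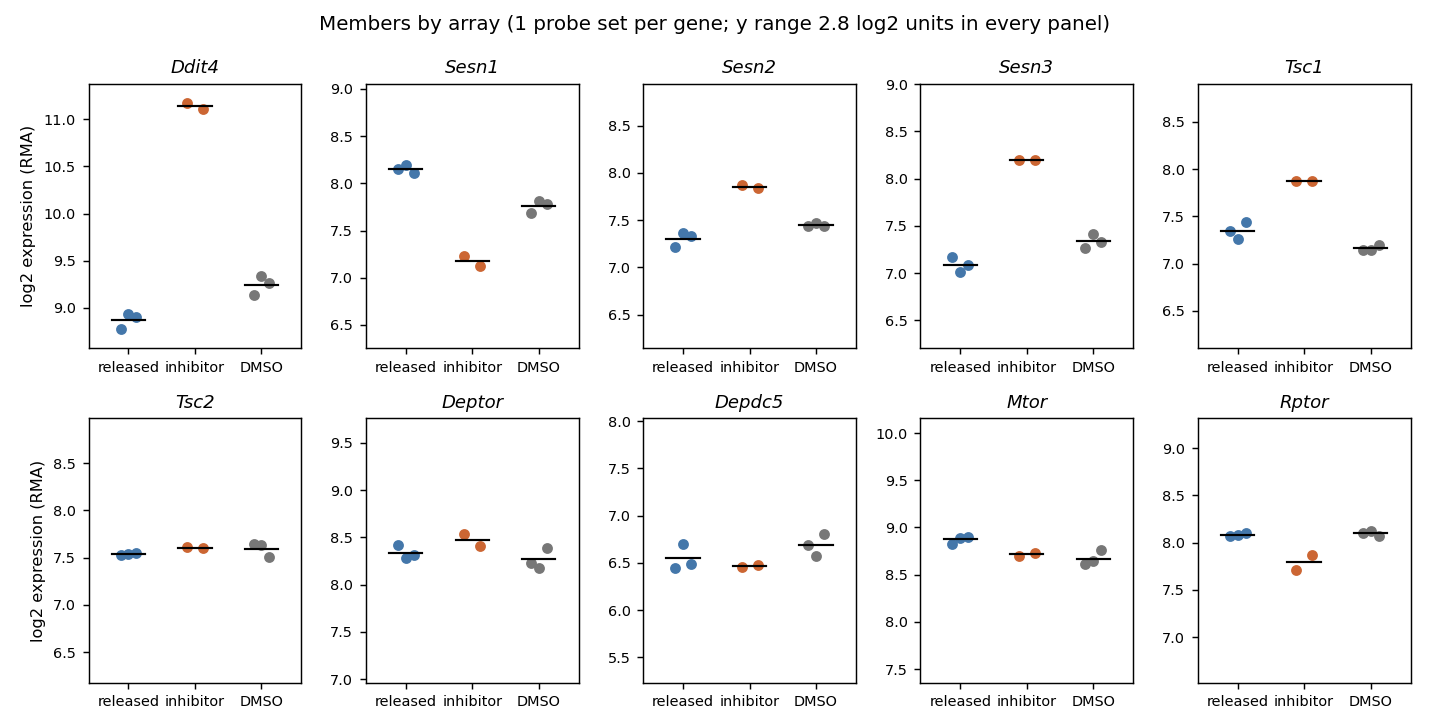
Log2 expression of the 10 member genes on each array (points) with group means (bars), for released, inhibitor-treated and DMSO cells. Ddit4, Sesn2, Sesn3 and Tsc1 are highest and Sesn1 lowest on both inhibitor-treated arrays, while Tsc2 spans 0.07 between group means.

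Ddit4 had the largest change among the member genes. Its log2 values were 8.78, 8.94 and 8.9 in released cells, 11.17 and 11.11 in inhibitor-treated cells, and 9.14, 9.34 and 9.26 in DMSO cells. The 3 groups did not overlap, with inhibitor-treated cells highest and released cells lowest. The rise with the inhibitor was 3.71-fold (1.89 ± 0.0797) and ranked 107 among the rises of 18193 genes. Release brought a 4.81-fold fall against inhibitor-treated cells (-2.27 ± 0.0797; limma adjusted p = 3.61e-08), the fall of rank 65. Against DMSO cells, Ddit4 was 1.3-fold lower after release (-0.37 ± 0.0713; limma adjusted p = 0.0112). The gene has 1 probe set, so no second measurement of it was at hand. Its relative Ddit4l, whose product also restrains mTORC1, rose 3.19-fold with the inhibitor (1.67 ± 0.0893; limma adjusted p = 5.09e-07).

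The 3 sestrins did not move as a family. Sesn3 showed log2 values of 7.17, 7.01 and 7.09 in released cells, 8.2 and 8.2 in inhibitor-treated cells, and 7.27, 7.41 and 7.33 in DMSO cells. All inhibitor-treated values lay above the others, and all released values lay below those of DMSO cells. It was 1.82-fold higher with the inhibitor (0.87 ± 0.0717; limma adjusted p = 7.88e-06) and 2.16-fold lower in released than in inhibitor-treated cells (-1.11 ± 0.0717). Its lower level in released than in DMSO cells passed narrowly (-0.25 ± 0.0641; limma adjusted p = 0.044). That call ended in 10 of 14 alternative settings, in each of the 8 that left out 1 array among them (limma adjusted p from 0.0525 to 0.143). In the other Sesn3 probe set the inhibitor difference was 0.49 and the release difference against inhibitor-treated cells -0.70, both called.

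Sesn2, whose product is a leucine sensor, rose less. Its values were 7.22, 7.36 and 7.33 in released cells, 7.87 and 7.84 in inhibitor-treated cells, and 7.44, 7.47 and 7.44 in DMSO cells. Again the inhibitor-treated values were above and the released values below those of DMSO cells, without overlap. The rise was 1.33-fold (0.41 ± 0.0656; limma adjusted p = 0.000645), and the released cells were 1.47-fold below the inhibitor-treated cells (-0.55 ± 0.0656; limma adjusted p = 8.8e-05). Between released and DMSO cells the difference was -0.14 ± 0.0586 and was not called (limma adjusted p = 0.186). The other probe set, 1425139_at, which the annotation ties to the same sequence record, gave 0.19 with the inhibitor and was not called (limma adjusted p = 0.0941). In it released minus inhibitor-treated cells gave -0.08 (limma adjusted p = 0.503) and released minus DMSO cells 0.12 (limma adjusted p = 0.424), with overlapping arrays in both. The fall of Sesn2 after release therefore rests on 1451599_at alone.

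Sesn1 moved the other way. It had values of 8.15, 8.19 and 8.11 in released cells, 7.23 and 7.12 in inhibitor-treated cells, and 7.69, 7.81 and 7.78 in DMSO cells. The groups were fully separated, with released cells highest and inhibitor-treated cells lowest. The fall with the inhibitor was 1.5-fold (-0.58 ± 0.0686; limma adjusted p = 8.54e-05), and released cells were 1.95-fold above inhibitor-treated cells (0.97 ± 0.0686; limma adjusted p = 2.67e-06). Released cells were also 1.31-fold above DMSO cells (0.39 ± 0.0613; limma adjusted p = 0.00435), a call kept under 14 of 14 alternatives. For released minus DMSO cells, 1454699_at gave 0.37, called (limma adjusted p = 0.035). In 1438931_s_at it was 0.2 with overlapping arrays and not called (limma adjusted p = 0.284). Of the 4 Sesn1 probe sets, 3 were called lower with the inhibitor, by -0.67 to -0.58. The remaining one, 1444376_at, ranged from 2.84 to 3.16 over all arrays, close to the bacterial controls, where differences are compressed. The probe sets 1433711_s_at and 1454699_at are tied to 1 sequence record, and 1433711_s_at and 1438931_s_at carry a suffix by which the manufacturer marks probes that can match more than 1 transcript.

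In the TSC complex, Tsc1 and Tsc2 differed. Tsc1 had values of 7.34, 7.26 and 7.44 in released cells, 7.87 and 7.87 in inhibitor-treated cells, and 7.14, 7.14 and 7.2 in DMSO cells. By this probe set, 1455252_at, the inhibitor-treated cells were highest, and the released cells lay between them and the DMSO cells without overlap. It rose 1.64-fold with the inhibitor (0.71 ± 0.0684; limma adjusted p = 2.15e-05), and released cells were 1.44-fold below inhibitor-treated cells (-0.53 ± 0.0684). The probe sets of Tsc1 disagreed. In 1422043_at, with 5.71, 5.83 and 5.69 in released, 5.18 and 5.42 in inhibitor-treated and 5.42, 5.44 and 5.67 in DMSO cells, the inhibitor difference was -0.21 and not called (limma adjusted p = 0.142). Released minus inhibitor-treated cells gave 0.44 in that probe set, called higher (limma adjusted p = 0.00635), where 1455252_at was called lower. That call of 1422043_at ended without inhibitor-treated replicate 1 (limma adjusted p = 0.0761). The third probe set, 1439989_at, at 3.12 to 3.5, was close to the bacterial controls. It gave 0.19 with the inhibitor (limma adjusted p = 0.221) and -0.06 after release (limma adjusted p = 0.704), neither called. Without DMSO replicate 1 its inhibitor difference was called (0.31; limma adjusted p = 0.0251). With the mean of the 3 probe sets, which includes this dim one, Tsc1 rose by 0.23 with the inhibitor (limma adjusted p = 0.0114). After release that mean differed by -0.05 (limma adjusted p = 0.549). The direction of Tsc1 after release therefore depends on the probe set. Which transcripts each probe set reads was not tested.

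Tsc2, the subunit that acts on RHEB, passed the test in none of the 3 comparisons. Its values were 7.53, 7.54 and 7.55 in released cells, 7.61 and 7.6 in inhibitor-treated cells, and 7.64, 7.63 and 7.51 in DMSO cells. Inhibitor-treated and DMSO cells overlapped, and the released values lay just below the inhibitor-treated ones. The difference with the inhibitor was 0.01 with a 95% interval from -0.13 to 0.15, and that of released against DMSO cells was -0.06 with an interval from -0.19 to 0.07.

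Deptor and Depdc5 gave small differences of opposite sign. Deptor, the direct inhibitor of mTOR, had 8.42, 8.28 and 8.31 in released cells, 8.54 and 8.41 in inhibitor-treated cells, and 8.23, 8.18 and 8.39 in DMSO cells. The inhibitor-treated values were just above those of DMSO cells, by 0.21 ± 0.0829 (limma adjusted p = 0.0671). This difference was called under 3 of 14 alternatives (limma adjusted p from 0.0142 to 0.0412). Among the 6 Deptor probe sets 1 passed, 1428622_at (0.19; limma adjusted p = 0.0408), and the 6 differences ran from -0.04 to 0.21. The -0.04 came from 1459719_at, which at 2.59 to 3.09 was close to the bacterial controls. The single call, of 1428622_at, was lost in each fit that left out an array (limma adjusted p from 0.0533 to 0.152). Depdc5 had 6.45, 6.7 and 6.49 in released cells, 6.46 and 6.48 in inhibitor-treated cells, and 6.69, 6.57 and 6.81 in DMSO cells. Here the inhibitor-treated values were just below those of DMSO cells, by -0.22 ± 0.0945 (limma adjusted p = 0.0942). All 6 Depdc5 probe sets were lower with the inhibitor, by -0.27 to -0.12, and 1 of them, 1458615_at, passed (limma adjusted p = 0.0187), a call lost under 4 alternatives (limma adjusted p from 0.0554 to 0.135). That probe set, at 3.17 to 3.59, was close to the bacterial controls, as were 1442410_at at 2.69 to 3.24 and 1444996_at at 3.52 to 3.78. The mean of the 6, which includes these dim probe sets, passed (-0.2; limma adjusted p = 0.0282). The brightest Depdc5 probe set also passed with arrays centred on the median (-0.27; limma adjusted p = 0.0401). It passed without DMSO replicate 2 as well (-0.28; limma adjusted p = 0.0484), and the other 11 of 14 alternatives gave no call. Released cells showed no call in either gene against DMSO cells.

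In mTORC1 itself, Rptor fell and Mtor depended on the probe set. Rptor had values of 8.07, 8.08 and 8.1 in released cells, 7.71 and 7.87 in inhibitor-treated cells, and 8.1, 8.12 and 8.07 in DMSO cells. Both inhibitor-treated arrays lay below all others, and released and DMSO cells overlapped. The fall with the inhibitor was 1.24-fold (-0.31 ± 0.0658; limma adjusted p = 0.00389). In the fit over all probe sets, this call ended without inhibitor-treated replicate 1 (-0.23; limma adjusted p = 0.07). Released cells were 1.23-fold above inhibitor-treated cells (0.29 ± 0.0658; limma adjusted p = 0.00499), a call that ended without inhibitor-treated replicate 1 (limma adjusted p = 0.0574). The other 2 Rptor probe sets, at 3.09 to 3.51, were close to the bacterial controls.

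Mtor had 8.83, 8.89 and 8.9 in released cells, 8.7 and 8.73 in inhibitor-treated cells, and 8.61, 8.64 and 8.76 in DMSO cells in its brightest probe set. Inhibitor-treated and DMSO cells overlapped, and released cells lay above both. The inhibitor difference was 0.04 with a 95% interval from -0.11 to 0.2. That of released against inhibitor-treated cells was 0.16 ± 0.068 and not called (limma adjusted p = 0.0906). That of released against DMSO cells was 0.2 ± 0.0608 and not called (limma adjusted p = 0.0734). Each of these 2 release differences was called under 3 of 14 alternatives. The probe set 1436267_a_at gave another picture, with 6.46, 6.55 and 6.68 in released cells, 6.1 and 6.16 in inhibitor-treated cells, and 6.53, 6.53 and 6.47 in DMSO cells. It was lower with the inhibitor by -0.38 (limma adjusted p = 0.00348) and higher after release by 0.43 (limma adjusted p = 0.00157). The dimmest Mtor probe set, 1446185_at, gave 0.06 with the inhibitor and 0.03 after release, neither called.

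Over all 31 probe sets, 6 were called higher with the inhibitor, against 17.5% of 34945 probe sets, and 7 were called lower, against 19.9%. Between released and inhibitor-treated cells 7 were called higher, against 19.9% of probe sets, and 5 lower, against 17%. Between released and DMSO cells 2 were called higher, both of Sesn1, against 3.61%, and 1 lower, that of Ddit4, against 3.02%. In these fits 1454699_at of Sesn1 missed the threshold without any 1 of the released or DMSO arrays (limma adjusted p from 0.0506 to 0.113). Ddit4 missed it without DMSO replicate 2 (limma adjusted p = 0.0567) or released replicate 1 (limma adjusted p = 0.0627). The probe sets of 1 gene are not independent, and genes such as Deptor and Depdc5 have 6 each.

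**Figure D2:**
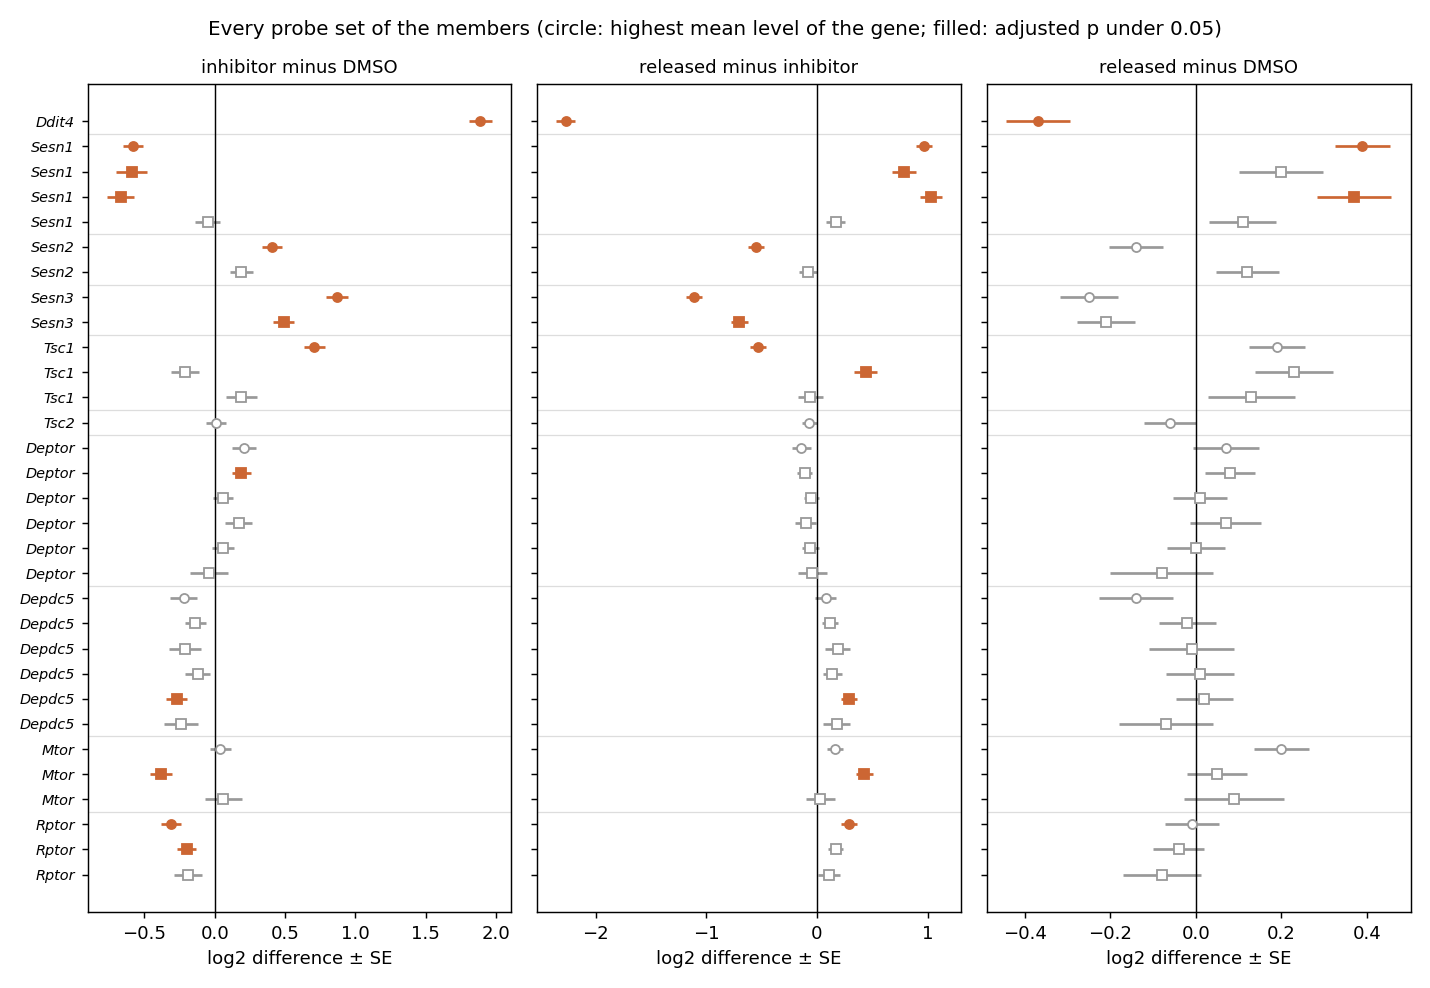
Log2 differences ± standard error of all 31 member probe sets in the 3 comparisons, 1 row per probe set, with the brightest of each gene as a circle and calls filled. The horizontal scales differ between panels; Sesn1 rows lie left of 0 with the inhibitor and right of it after release, and the filled Tsc1 rows of the middle panel point in opposite directions.

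The size of these changes was set beside that of all genes. The median absolute log2 difference over all genes was 0.19 with the inhibitor, 0.191 for released against inhibitor-treated cells and 0.0906 for released against DMSO cells. With the inhibitor Sesn3 ranked 752, Tsc1 1099 and Sesn2 2274 among rises, and Sesn1 ranked 1140 and Rptor 3014 among falls. In released against DMSO cells Sesn1 had rank 422 among rises and Ddit4 rank 376 among falls. The arrays of inhibitor-treated and DMSO cells did not overlap in 5 member genes that were higher and 3 that were lower, against 25.5% and 35% of all genes. Between released and inhibitor-treated cells 3 did not overlap as higher and 5 as lower, against 36.2% and 25.7%, and between released and DMSO cells 3 and 3, against 14.6% and 14%.

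**Figure D3:**
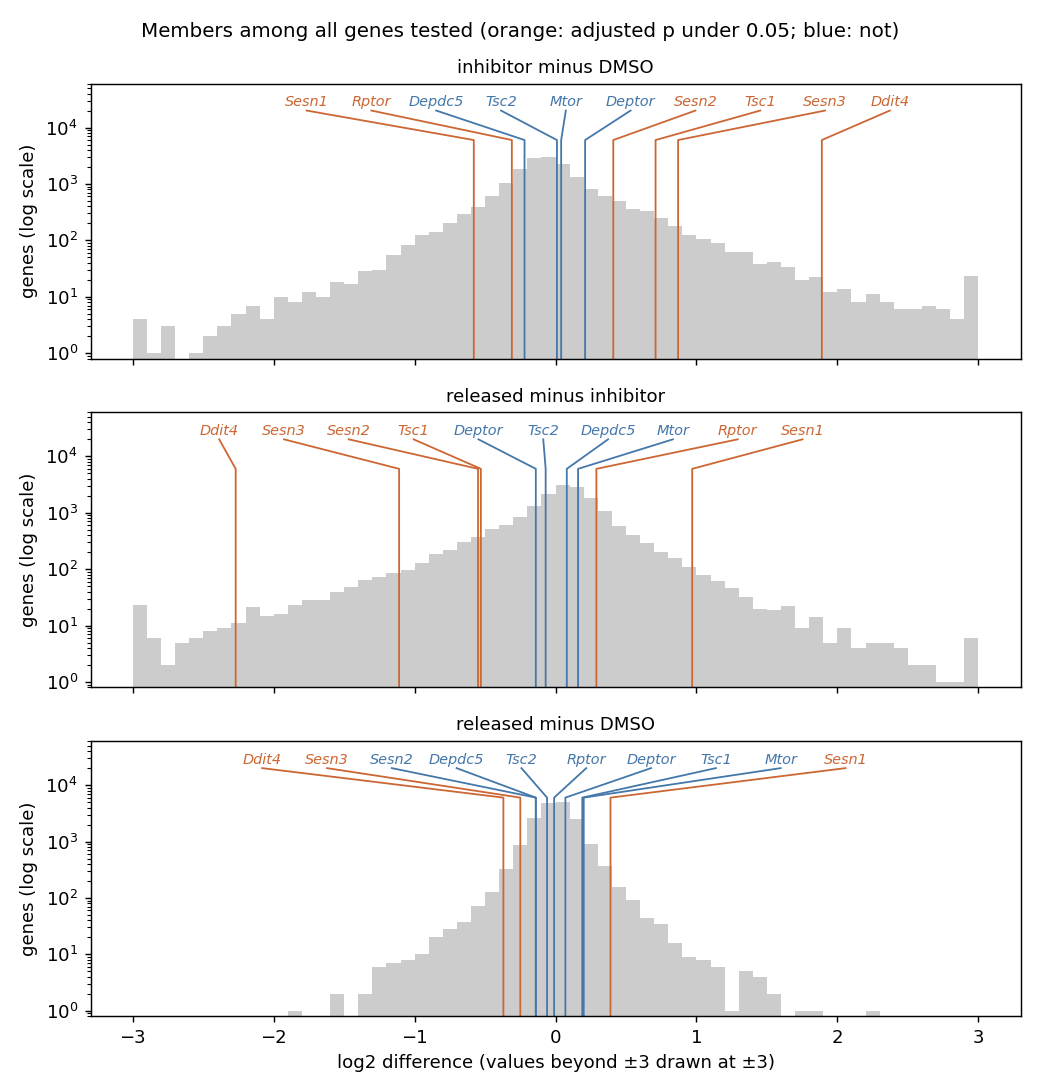
Histograms of the log2 difference over 18193 genes in each comparison, with a logarithmic count axis and the member genes marked by lines. Ddit4 lies in the outer part of the first 2 panels, at 1.89 and -2.27, while Tsc2, Mtor, Deptor and Depdc5 lie near the centre.

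Genes whose profile over the 8 arrays was closest to a member were found by the root mean square difference of log2 values after subtraction of each DMSO mean. Symbols of unnamed gene models were left out of this search. The arrays fall into 3 groups, so closeness mainly reflects the group means. The nearest gene to Ddit4 was Trib3 (0.0871), a pseudokinase induced by ATF4, followed by Tspan17 (0.112) and Tmed3 (0.114). Sesn1 was closest to Eif1ax (0.0495), Bex4 (0.0552) and Pkm (0.056), Sesn2 to Dnaja3 (0.0297), Idh2 (0.0377) and Nptn (0.0401), and Sesn3 to Smad5 (0.044), Ildr1 (0.0589) and Klhdc2 (0.0625). The profile of Tsc1 was nearest to those of Zfp229 (0.0444), Gusb (0.047) and Ubr4 (0.0551).

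Other genes of the pathway were read from 8 lists, which hold 106 genes, of which 99 were measured. With the inhibitor 44 were higher, against 19.2% of all genes, and 17 lower, against 22.3%, with a median of 0.14. The same shares of all genes belong beside the count of every single list with the inhibitor. Among the transcription factors known to act on member genes, 8 of 11 measured rose and 1 fell (median 0.58, against -0.06 for all genes). Atf4, the main factor of the integrated stress response and an activator of Ddit4 and Sesn2, had 11.37, 11.39 and 11.39 in released cells, 11.98 and 11.88 in inhibitor-treated cells, and 11.27, 11.41 and 11.38 in DMSO cells. Both inhibitor-treated values were above all others, and released and DMSO cells overlapped. The difference between inhibitor-treated and DMSO cells was 0.58 (limma adjusted p = 7.72e-05). Its partners Ddit3 (2.85; limma adjusted p = 1.48e-07) and Cebpb (3.84; limma adjusted p = 1.25e-08) rose more.

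Foxo3, a forkhead factor known to induce Sesn1 and Sesn3, rose by 1.02 (limma adjusted p = 9.27e-07) and stayed 0.42 above DMSO in released cells (limma adjusted p = 0.0015). Foxo1 (0.53; limma adjusted p = 0.000342), the oxidative stress factor gene Nfe2l2 (0.79; limma adjusted p = 1.51e-05) and Hif1a (0.64; limma adjusted p = 6.02e-05), known to act on Ddit4 under low oxygen, rose too. Myc differed by -0.17 with the inhibitor (limma adjusted p = 0.316) and was 0.54 above DMSO in released cells (limma adjusted p = 0.0148). The p53 gene was not analysed here.

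Of 15 measured ATF4 targets other than the members, 12 rose and 0 fell with the inhibitor (median 0.81), against 19.2% and 22.3% of all genes. The factor genes Atf5 (2.63) and Atf3 (2.29), the pseudokinase gene Trib3 (1.82) and the phosphatase subunit gene Ppp1r15a (1.31) had the smallest p-values of the list. They did not all have the largest differences, since Vldlr, a lipoprotein receptor gene named after its values were seen, differed by 2.52. Eif4ebp1, another target and an mTORC1 substrate that represses translation, gave 0.03 (limma adjusted p = 0.76).

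Among the amino acid sensing genes, the Rag, Ragulator and folliculin list had 6 of 12 measured genes higher and 2 lower (median 0.37). Of all genes, 19.2% were higher and 22.3% lower. Rragd, encoding RagD, had 9.02, 9.05 and 9 in released cells, 10.83 and 10.95 in inhibitor-treated cells, and 9.85, 9.9 and 9.95 in DMSO cells. Its groups were separated in the same order as those of Ddit4, with 0.99 for inhibitor-treated and -0.87 for released against DMSO cells (limma adjusted p = 1.76e-06 and 3.74e-05). Flcn, the folliculin gene (0.78), its partner gene Fnip1 (0.94) and Rragc, encoding RagC (0.74), rose as well. Of 11 measured GATOR and KICSTOR genes other than Depdc5, 1 rose and 3 fell (median -0.14). Castor1, whose product senses arginine and holds back GATOR2, fell by 0.79 on the log2 scale (limma adjusted p = 4.19e-06), Kptn of KICSTOR gave -0.36 and the GATOR2 subunit gene Seh1l -0.21, and Nprl2, the GATOR1 subunit that carries its activity on the Rag GTPases, rose by 0.23.

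Of 17 measured genes of the TSC partner, Rheb and the inputs from AKT and AMPK, 6 rose and 2 fell (median 0.13). Of all genes, 19.2% rose and 22.3% fell. Besides Ddit4l, the AMPK subunit gene Prkaa2 (0.88) and the insulin receptor substrate gene Irs2 (0.92) rose, and the RHEB relative Rhebl1 fell (-0.79). Rheb itself differed by 0.16 (limma adjusted p = 0.065). Among the other mTOR complex and assembly genes, 2 of 9 rose, Prr5l (0.58) and Rictor (0.34), which encodes the scaffold of mTORC2. Prr5 (-0.58), a dim gene with 3.1 to 4.1 on the arrays of both groups, and Tti1 (-0.3) fell, and Mlst8 (-0.13; limma adjusted p = 0.138) and Akt1s1 (-0.09; limma adjusted p = 0.378) were not called.

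Among 15 measured substrates and effectors 3 rose and 6 fell (median -0.11), against 19.2% and 22.3% of all genes. Grb10, an adaptor that dampens insulin signalling, rose 3.32-fold (1.73) and stayed 0.95 above DMSO in released cells. The translation inhibitor gene Pdcd4 rose (0.81), and the cap-binding factor gene Eif4e (-0.5), Rps6 (-0.35) and the lysosome regulator gene Tfeb (-0.29) fell. The autophagy kinase gene Ulk1 (0.14; limma adjusted p = 0.14) was not called, and the S6 kinase gene Rps6kb1 was not analysed here. Of 10 measured genes known to rise with mTORC1 activity through SREBP and HIF1, 6 rose and 1 fell with the inhibitor (median 0.35). Vegfa, encoding the vascular growth factor (2.42), Srebf2, the sterol regulator (0.77), and Hmgcs1, of sterol synthesis (0.62), rose, while the mitochondrial kinase gene Pdk1 fell (-1.3). These lists were drawn up with earlier results of these arrays known, and their counts are descriptions.

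**Figure D4:**
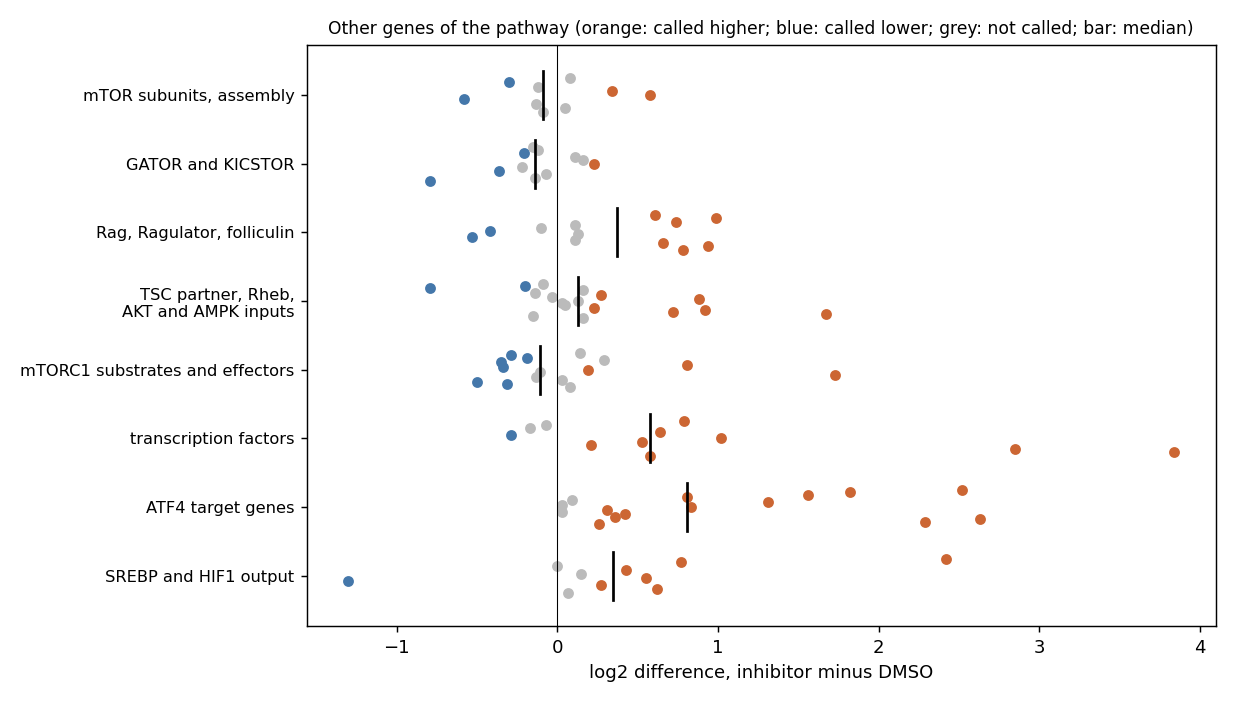
Log2 difference of inhibitor-treated minus DMSO cells for the measured genes of the 8 pathway lists, 1 point per gene, coloured by call, with the list median as a bar. Cebpb at 3.84 is the point farthest to the right, and the medians of the transcription factor and ATF4 target lists are 0.58 and 0.81.

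In released against inhibitor-treated cells, 18 of the 99 measured list genes were higher and 49 lower (median -0.18, against 0.06 for all genes). Of all genes, 22.7% were higher and 19.2% lower there. Between released and DMSO cells 10 list genes were higher, against 4.66% of all genes, and 3 lower, against 4.01% (median -0.01). The 3 that were lower were Rragd (-0.87), Trib3 (-0.42) and Atg13, of which Atg13, a partner of ULK1 in autophagy, was named after its values were seen.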

How the data were processed

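Total RNA of 8 ESC samples was hybridised as biotin-labelled cRNA to Affymetrix GeneChip arrays, 1 per sample. Per probe set, the authors deposited log2 values. RMA is named in the submitters' processing notes, with oligo 1.32.0 and with limma 3.2.15. No source names the scale; log2 follows from the range of 1.69 to 13.76. RMA corrects background, quantile-normalizes arrays and summarises probes, so values are relative within an array and a shift shared by most genes is not visible. The genome build is not given in the sources used here. Precision is limited by how many arrays there are.

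Of 45101 probe sets, 34945 had 1 symbol in the platform annotation, 932 several and 9160 none, and 64 were controls. Gene numbers of 34741 matched RefSeq (GRCm38.p6), which changed 0 symbols. One fit used the probe set of each gene with the highest mean level (18193 genes) and another every probe set with 1 symbol. Both used limma 3.58.1 (R 4.3.3, lmFit and eBayes) on all 8 arrays with 1 mean per group and 5 residual degrees of freedom. P-values were two-sided with Benjamini-Hochberg adjustment over all genes or probe sets of a comparison. The procedure was tested on simulated data. Figures and promoter searches used Python 3.11.15.

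The members and gene lists were chosen with earlier results of these data known. Named were all members, up to 4 called genes per list with the smallest p with the inhibitor, 15 further pathway genes, and 3 nearest profiles per member whose group means spanned at least 0.5. Replicate numbers were not used as pairs in the main fits. Deviations from group means correlated between -0.056 and 0.014 for same-numbered arrays and between -0.06 and 0.069 for the others. The deviations of the 2 inhibitor-treated arrays mirror each other, so these values cannot settle whether same-numbered arrays belong together. Settings tried instead were each gene's mean over its probe sets, removal of the lowest 30% by level, centring of arrays on the median, a variance trend with robust prior, only the groups compared, a replicate block, and leaving out each array.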

Additional observations from a re-analysis of the deposited data

How the results depend on the processing

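The calls of Ddit4, Sesn1, Sesn2, Sesn3, Tsc1 and Rptor with the inhibitor held under all 14 alternatives of the fit over genes, and no called member changed sign there. In the fit over probe sets Rptor lost it without inhibitor-treated replicate 1 (-0.23; limma adjusted p = 0.07). Released against DMSO cells was the comparison that moved most. There, 1 member gene was called higher and 2 lower. The count called higher was 2 without genes of low level (Mtor added) and 3 with a variance trend and robust prior (Mtor and Tsc1 added), and that called lower was 1 with only the groups compared and 1 with the replicate block, where Sesn3 was lost (limma adjusted p = 0.0656 and 0.0997). Over all genes the variance trend gave 1382 higher and 1259 lower calls, against 847 and 729, and over all probe sets 2172 and 1959, against 1263 and 1055. Member probe sets called lower were 2 with that model and 2 without low levels, against 1.

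Leaving out 1 array at a time gave 4 to 5 member genes higher and 2 to 3 lower with the inhibitor, 1 to 2 higher and 4 lower between released and inhibitor-treated cells, and 1 to 2 higher and 1 lower between released and DMSO cells. All genes called between released and DMSO cells ranged from 498 to 720 higher and 432 to 624 lower, the fewest without released replicate 2 (498 higher) and released replicate 1 (432 lower), followed by DMSO replicate 1 (535 higher) and DMSO replicate 2 (457 lower), and all probe sets from 676 to 1113 and 585 to 912. Member probe sets ranged from 4 to 7 lower with the inhibitor, 4 to 8 higher between released and inhibitor-treated cells, and 1 to 2 higher and 0 to 1 lower between released and DMSO cells. Without inhibitor-treated replicate 1, 4 member probe sets were lower with the inhibitor, against 7, and 4 higher after release, against 7. At probe set level the lower Ddit4 of released cells missed the threshold without DMSO replicate 2 (limma adjusted p = 0.0567) or released replicate 1 (0.0627). With the replicate block, 3237 genes were higher and 3589 lower with the inhibitor, against 3497 and 4060. The cause of these changes was not tested.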
